A study of Rattus norvegicus with 9 samples.

Results

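The nuclear genes for subunits of mitochondrial complex I were followed in pancreatic islets of rats fed a standard or a cafeteria diet. Members were the genes whose array annotation gives exactly 1 symbol beginning with Ndufa, Ndufab, Ndufb, Ndufc, Ndufs or Ndufv, without the assembly factors named Ndufaf. This gave 36 genes of 14217 named on the array. The rule used no measured value, but it was set with earlier results of these data known. The 36 genes had 39 probe sets. Ndufa7, Ndufa9 and Ndufv3 had more than 1, and the one with the highest mean signal over the 9 arrays was used. This choice changes the values of all 3 genes. The comparison set 4 arrays of standard-fed against 5 of cafeteria-fed rats, 1 independent islet sample to an array, by Affymetrix Rat Genome 230 2.0 hybridisation. All rats were male Wistar, 7 weeks old and 225 to 250 g at the start, housed singly, and stayed on their diet for 30 days. Fat supplied 8% of calories in the standard chow and 66% in the cafeteria diet, a choice of palatable, energy-dense foods. Samples were grouped by their titles. A separate diet entry in the labels names the other diet for 9 of 9 samples, and grouping by it would turn all signs given here. The design lists 1 more standard-fed sample, which was not analysed here.

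Complex I, or NADH:ubiquinone oxidoreductase, is the entry point of electrons from NADH into the respiratory chain. It passes them to ubiquinone and pumps protons across the inner mitochondrial membrane, which drives ATP synthesis. In beta cells, ATP made this way from glucose closes potassium channels and leads to insulin release. The complex is built in modules: an N module that oxidises NADH, a Q module that reduces ubiquinone, and a membrane arm with a proximal and a distal part that holds the proton pumps. Accounts differ on the place of a few subunits at the borders between modules. Core subunits carry out catalysis and have bacterial counterparts, while accessory subunits surround and stabilise them. The core subunits encoded by mitochondrial DNA had no probe set named here, and the probe sets of Ndufs5 and Ndufa10 carry several symbols and were left out. Ndufa4, once counted in complex I, is now placed in complex IV, and Ndufa4l2 is its hypoxia-induced paralogue. Both match the naming rule and are given apart.

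Nuclear respiratory genes are known targets of the factors Nrf1, of Ets factors such as Gabpa, and of Yy1, so promoters were searched for their letters. RefSeq promoters (build GRCr8, from 250 bases before to 50 after the start) matched 34 of the 36 genes, all but Ndufa8 and Ndufb9. The Nrf1 letters (GCGC, any base, then TGCGC) were in 6 of 34 (17.6%) against 4.71% of all 27457 promoters. The Ets letters CCGGAAG were in 7 of 34 (20.6%) against 9.22%, and the Yy1 letters AAGATGGCG in 7 of 34 (20.6%) against 1.93%. Both strands were searched, a site that reads alike on both strands counted once, and 3 genes held letters of 2 kinds. In all, 17 of 34 held at least 1 kind, against 14.3% of all promoters. The median GC content was 56.6% in the members and 52.3% in all promoters. The Yy1 letters lay within the 50 bases after the start, on the gene's own strand, in 7 of the 7 members that held them, and in 253 of the 531 promoters of any gene that did. These letters contain an ATG. A match describes the letters and is no evidence of binding. Of the members given array by array for their core role or their small p, 5 held such letters, and the stretch around them is shown, 5′ to 3′ on the gene's strand, with the matched letters in capitals. Ndufa11 holds overlapping Nrf1 letters:
Ndufa11, chr9:1637488-1637567, plus strand: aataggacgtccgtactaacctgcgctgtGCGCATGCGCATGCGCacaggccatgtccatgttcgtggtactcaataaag
Ndufs1 and Ndufs8 hold the Ets letters, here on the opposite strand:
Ndufs1, chr9:72073762-72073841, minus strand: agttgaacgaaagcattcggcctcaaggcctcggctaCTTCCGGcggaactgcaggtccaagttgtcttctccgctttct
Ndufs8, chr1:210573699-210573778, minus strand: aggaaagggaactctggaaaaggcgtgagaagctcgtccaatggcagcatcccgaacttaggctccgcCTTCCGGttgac
Ndufa9 and Ndufs7 hold the Yy1 letters just after the start:
Ndufa9, chr4:161374142-161374171, minus strand: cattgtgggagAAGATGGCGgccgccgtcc
Ndufs7, chr7:10110476-10110505, minus strand: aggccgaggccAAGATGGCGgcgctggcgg

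The labelled tissue matched its markers. The summed signal of 6 beta cell markers was 116522 to 178971 over the 9 arrays, that of 3 alpha cell markers 34585 to 51248, and that of 2 delta cell markers 18793 to 36398. Summed acinar markers (10 genes) ran from 3240.0 to 8874 in standard and from 2650.1 to 9490 in cafeteria islets. Macrophage markers (10 genes) ran without overlap from 5089 to 9441 in standard and from 3185 to 4705 in cafeteria islets. Lymphocyte markers (7 genes) ran from 732.7 to 3742 and from 518.6 to 754.3. Both upper ends in standard islets were on standard replicate 3, which also had the lowest beta cell sum, 116522. The other standard arrays had 5089 to 5552 for macrophage and 732.7 to 1007 for lymphocyte markers. By mean signal, the macrophage sum came mostly from Cd74 (3165, next C1qa with 513.8). The alpha cell sum came almost wholly from Gcg (41332). None of the marker lists had a gene listed at 0 or a gene that passed the test. In such a mixture, fewer cells of a type and less RNA per cell cannot be told apart. Array medians lay between 146.9 and 166.6. Nothing in the labels names a batch.

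One array was low for many complex I genes, cafeteria replicate 3. There the median deviation of the 36 genes from their own 9-array mean was -0.24 on the scale of log2(signal + 16), against -0.068 to 0.085 on the other 8 arrays. It held the lowest signal of all arrays for 18 of 36 genes and the highest for 4. Its median deviation over all probe sets tested was -0.014, and over the 3105 probe sets in the top 10% of mean signal it was 0.050. Complexes II to V had -0.080 there. Within them, complex III (-0.15) and complex IV (-0.11) were also at their lowest of the 9 arrays, while complex V had -0.052 and complex II 0.093. Mitochondrial ribosomal proteins had -0.026 and complex I assembly factors -0.0084. The ratio of the beta-actin probe sets at the 3′ and 5′ ends of the transcript, a measure of RNA integrity, was highest on this array, at 5.63 against 2.79 to 4.84 on the others. On standard replicate 1 it was 4.84, with a median deviation of the 36 genes of -0.053. On cafeteria replicate 5 it was 4.59, with a median deviation of 0.067 and the highest signal for 7 of 36 genes. The lowest beta-actin ratio was on cafeteria replicate 1, which held the highest signal for 11 of 36 genes. The same ratio for GAPDH did not single out cafeteria replicate 1 or 3. It was 1.53 on cafeteria replicate 3, within the range of 1.29 to 1.64 over all arrays. Its highest value was on standard replicate 1 and its lowest on cafeteria replicate 4. The summed acinar markers were also highest on cafeteria replicate 3, with 9490, next to 9073 on cafeteria replicate 1. Several other sums were at their lowest on cafeteria replicate 3. Delta cell markers had 18793 there, against 26242 to 36398 on the other 8 arrays, PP cell markers 30182, duct markers 2985 and adipocyte markers 717.6. Each of these sums came mostly from 1 gene, by mean signal: Sst (29485), Ppy (the only PP cell marker), Krt7 (3524) and Fabp4 (908). Of the adipocyte markers only Fabp4 reached the signal needed for the test. Of these measures of the arrays, only the beta-actin ratio was entered in a fit, as a covariate, with its counts given below. The part of the others in the result was not tested.

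**Figure D1:**
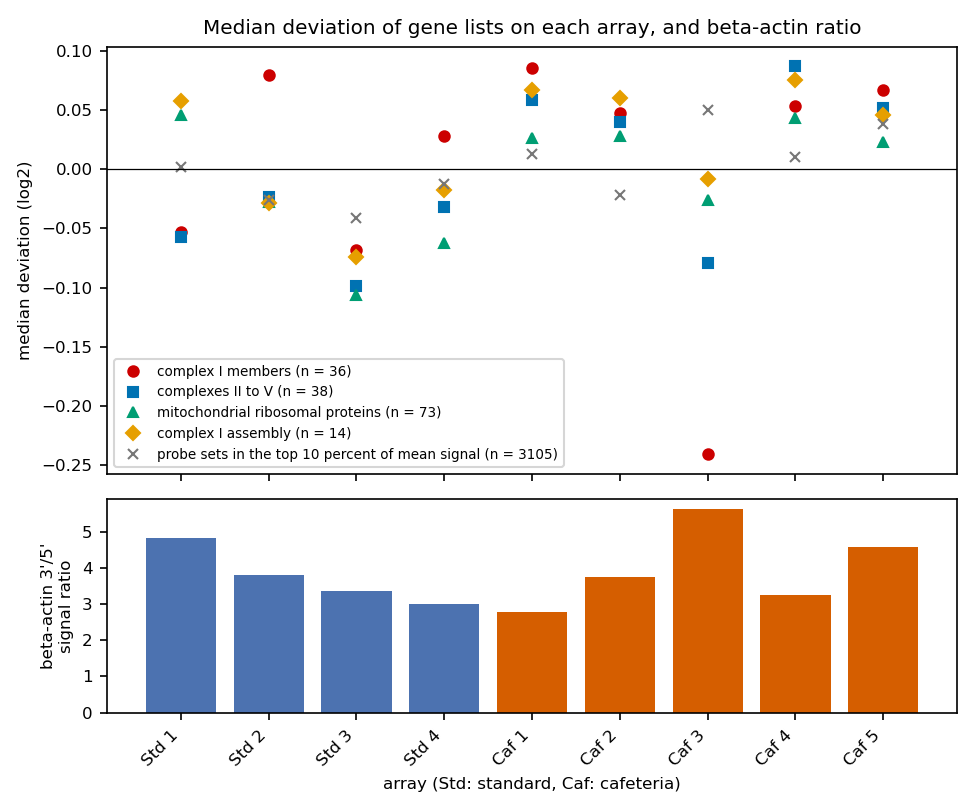
Upper panel, median deviation of gene lists and of the 10% of probe sets highest in mean signal from their 9-array mean (log2 scale) on each array; lower panel, ratio of the beta-actin 3′ and 5′ signals on each array. The complex I point of cafeteria replicate 3, at -0.24, is the lowest point, and that array has the highest ratio, 5.63.

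No complex I gene passed the test for a difference between diets. In limma's fit over all 18625 probe sets tested, 0 of 36 members had an adjusted p under 0.05 (lowest 0.839), and 0.0% of all probe sets did. Of the members, 17 lay higher and 19 lower in cafeteria islets, with a median log2 fold of -0.0038. Of all probe sets tested, 48.1% lay higher, with a median of -0.0090. Folds ran from -0.20 for Ndufb10 to 0.26 for Ndufb5. At an unadjusted p under 0.05 there were 3 members, all 3 higher, which is 8.33% of them against 5.8% of all probe sets (3.01% higher and 2.79% lower). These were Ndufb6, Ndufb3 and Ndufb5, small subunits of the distal membrane arm. The groups did not overlap, with every cafeteria array above every standard array, for 3 members (Ndufb6, Ndufb3 and Ndufc1), or 8.33%, against 0.999% of all probe sets. No member had all cafeteria arrays below the standard ones, against 0.762% of all. Some counts moved with single arrays. The count at an unadjusted p under 0.05 was 6 with standard replicate 1 left out, against 8.99% of all probe sets. It was 5 with cafeteria replicate 3 left out (4.21% of all) and 1 with standard replicate 3 left out (3.82% of all). Without cafeteria replicate 3, 28 members lay higher, against 49.0% of all probe sets, but that array was singled out for its low values of these genes. Log2 folds are differences of mean log2(signal + 16), and an adjusted p carries the Benjamini-Hochberg correction.

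The precision was higher than over the array as a whole. The median standard error of the members was 0.12 on the log2 scale, against 0.18 over all probe sets tested. For 31 of 36 members the 95% confidence interval of the log2 fold lay between -0.5 and 0.5, and its farthest bound was -0.68, for Ndufb8. The interval is limma's, with no correction for the number of genes. The number of arrays limits it, as array signals carry no read depth.

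**Figure D2:**
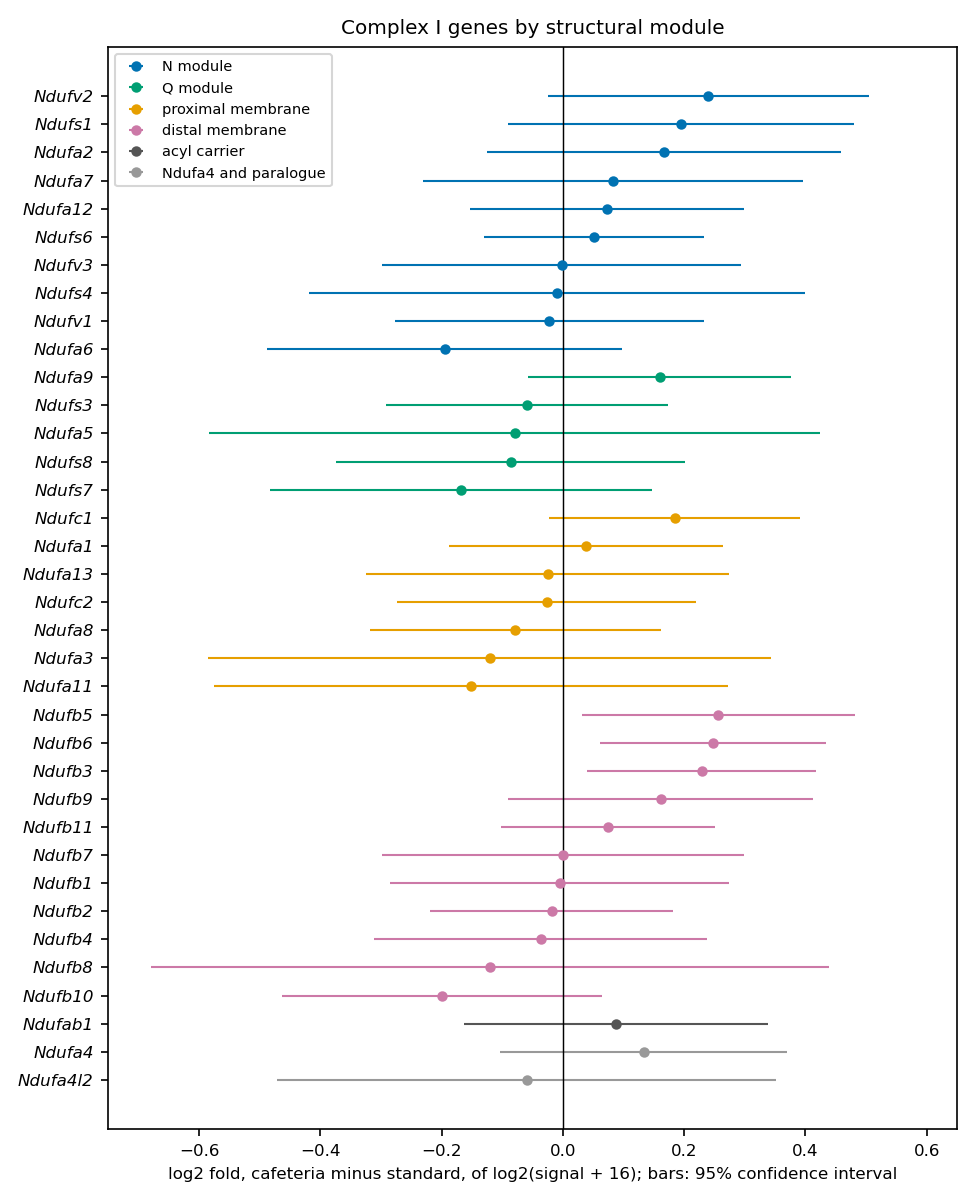
Log2 fold of each of the 36 genes, cafeteria minus standard, on the scale of log2(signal + 16), grouped by structural module; points are limma's estimates and bars their 95% confidence intervals. The intervals of Ndufb5, Ndufb6 and Ndufb3 lie above 0 and those of the other genes include 0.

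On cafeteria replicate 3 the genes did not move as 1 block. Set against the mean of the other 8 arrays, 25 of 36 were lower there and 11 higher. The farthest below were Ndufa11 (-0.95), Ndufb8 (-0.88), Ndufa3 (-0.78), Ndufa5 (-0.78) and Ndufs7 (-0.64), all log2 differences. The farthest above were Ndufs1 (0.43), Ndufs4 (0.38), Ndufa9 (0.29), Ndufb9 (0.27) and Ndufa12 (0.21). In the distal membrane arm, 5 of 11 genes (Ndufb8, Ndufb4, Ndufb10, Ndufb7 and Ndufb1) lay more than 0.5 below, as did 2 of 7 in the proximal part, 2 of 5 in the Q module and 0 of 10 in the N module. Ndufa5, an accessory subunit of the Q module, and Ndufa3 were chosen here after their values were seen. The Ndufa5 signal was 560.0, 837.6, 907.4 and 1027 on standard replicates 1 to 4 and 1200.1, 800.6, 483.0, 852.2 and 676.8 on cafeteria replicates 1 to 5. It was lowest on cafeteria replicate 3 and next lowest on standard replicate 1. Ndufa3, which encodes a small membrane subunit, was lowest on the same pair of arrays, at 1523.5 and 1748. Ndufs1 went the other way, with its highest signals on cafeteria replicates 3 and 5 and standard replicate 1, the 3 arrays with the highest beta-actin ratios. This match of 1 gene was picked out after the values were seen. A link between the ratio and single genes was not tested.

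**Figure D3:**
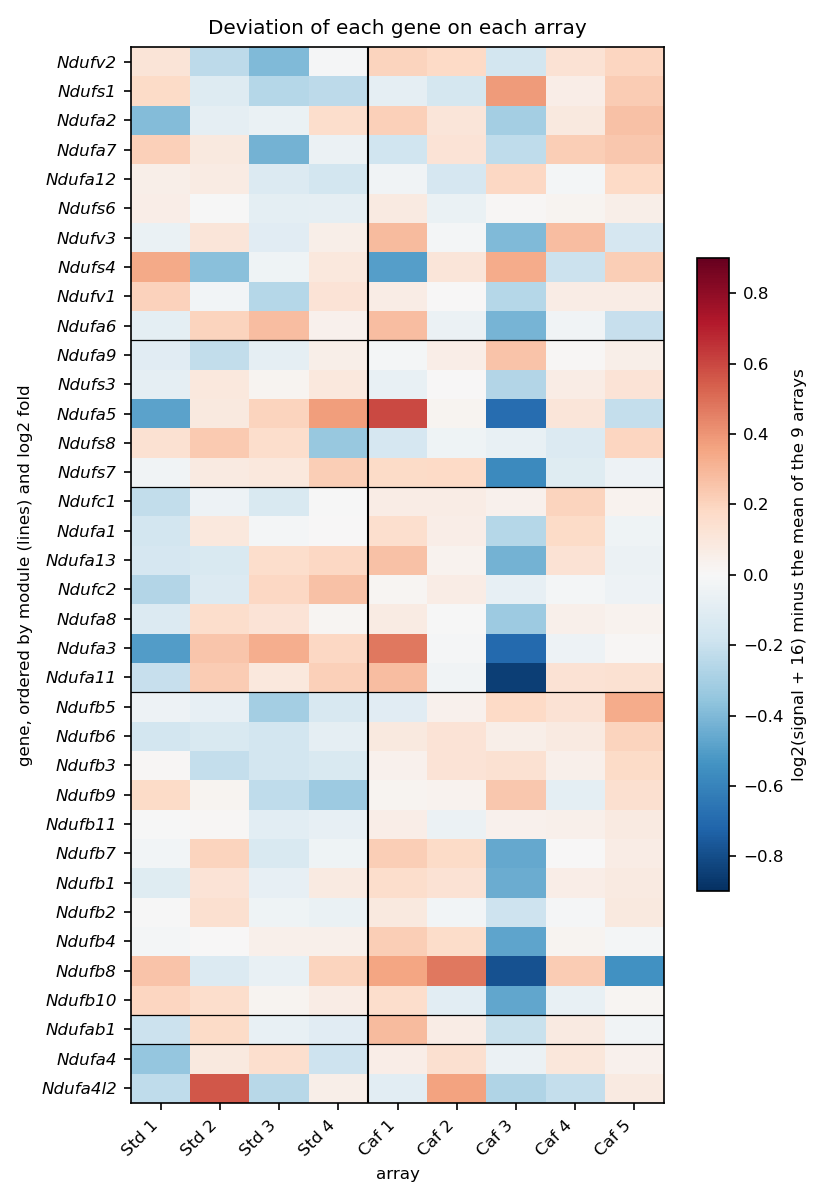
Deviation of each of the 36 genes (rows, ordered by module and log2 fold) from its 9-array mean of log2(signal + 16) on each array (columns, 4 standard and 5 cafeteria). Cafeteria replicate 3 has the darkest blue cells, as for Ndufa11 and Ndufb8, beside red ones for Ndufs1 and Ndufs4.

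Without cafeteria replicate 3, 28 of 36 members lay higher and 8 lower, in place of 17 and 19, while the share of all probe sets that lay higher was 49.0% in place of 48.1%. The median log2 fold of the members was then 0.079, and that of all probe sets -0.0041. This array was singled out because these same 36 genes were low there. A rise of their folds without it follows from that choice. The probe sets as a whole had no part in the choice, so their share is no test of the rise. No member passed limma's test without this array either (lowest adjusted p 0.996). The 5 members at an unadjusted p under 0.05 were all higher, and 4.21% of all probe sets reached that p. They were Ndufb6, Ndufv2, Ndufb3, Ndufa2 and Ndufb5. The groups did not overlap for 4 members, Ndufv2 with the 3 named above, against 1.55% of all probe sets with the cafeteria arrays above. The folds of Ndufb6, Ndufb3, Ndufb5 and Ndufc1 were nearly as before, at 0.26, 0.22, 0.24 and 0.20. Scaling the arrays to 1 median also moved the split, to 25 higher and 11 lower, with 57.0% of all probe sets then higher.

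**Figure D4:**
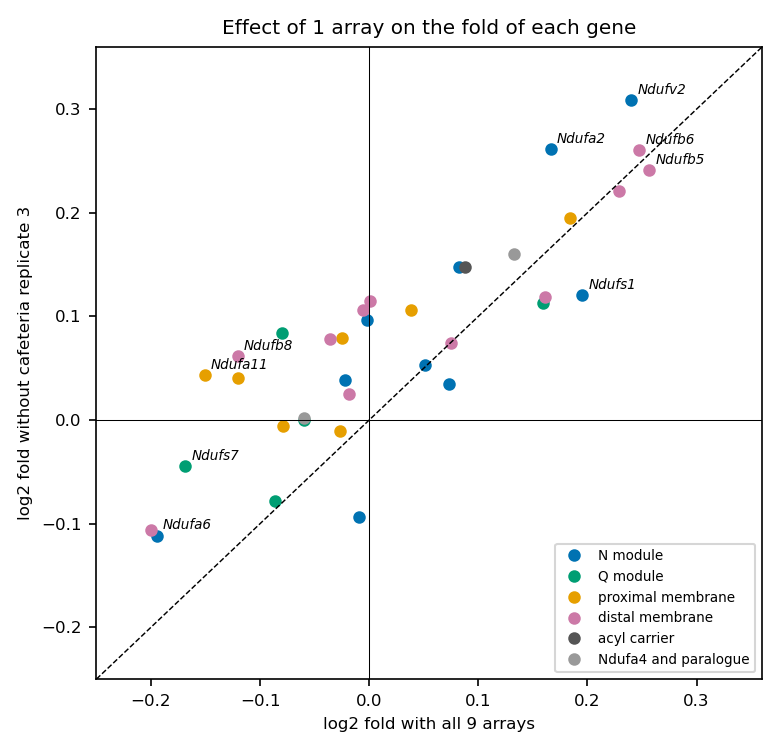
Log2 fold of each gene with all 9 arrays (horizontal axis) and without cafeteria replicate 3 (vertical axis); points are genes coloured by module and the dashed line marks equality. Most points lie above the line, and 28 of 36 lie above 0 on the vertical axis, against 17 on the horizontal one.

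The N module accepts electrons from NADH. Of its 10 members, 6 lay higher and 4 lower, with a median log2 fold of 0.062, and the smallest unadjusted p belonged to 2 core subunits. Ndufv2, which carries an iron-sulfur cluster, had signals of 4383, 3429.7, 3059 and 4003 on the 4 standard arrays and 4645, 4576, 3599, 4417 and 4627.5 on the 5 cafeteria arrays. All cafeteria arrays but replicate 3 lay above the whole standard range, and standard replicate 1 was the highest of its group. The means were 3719 ± 588.8 (SD, n = 4) on standard and 4373 ± 442.0 (SD, n = 5) on cafeteria arrays. The log2 fold was 0.24 ± 0.12 (SE), with an adjusted p of 0.839 by limma and an exact two-sided permutation p of 0.103. It was 0.31 without cafeteria replicate 3 and 0.15 without standard replicate 3, the array with the lowest Ndufv2 signal.

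Ndufs1, the largest core subunit and also an iron-sulfur protein, had 2958, 2427, 2202 and 2229.8 on standard and 2479, 2354, 3435, 2741 and 3085 on cafeteria arrays. The ranges overlapped, with standard replicate 1 above 3 of the cafeteria arrays. Its log2 fold was 0.20 ± 0.13 (SE) (adjusted p 0.859 by limma, exact permutation p 0.206), and 0.12 without cafeteria replicate 3, its highest array. Ndufv1, the core subunit that binds NADH and flavin, had 2583.5, 2188, 1868 and 2425 on standard and 2339, 2233, 1868, 2336 and 2338 on cafeteria arrays. All its cafeteria values lay inside the standard range, and the log2 fold was -0.022 ± 0.12 (SE). That sign turned in several settings, as without standard replicate 1 (0.044), without cafeteria replicate 3 (0.039) and with arrays scaled to 1 median (0.022).

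Among the accessory subunits of the N module, Ndufa2 had a log2 fold of 0.17 ± 0.14 (SE), and 0.26 without cafeteria replicate 3. Ndufa6 had -0.19 ± 0.14 (SE), the lowest of the module, and -0.11 without that array. Ndufa7 had 0.082 ± 0.15 (SE), Ndufa12 0.073 ± 0.10 (SE), and Ndufs6, which binds zinc, 0.051 ± 0.084 (SE). Ndufs4, whose loss causes Leigh syndrome, had -0.0094 ± 0.19 (SE), and Ndufv3 -0.0021 ± 0.14 (SE), and both signs turned in some alternative settings. The Ndufs6 signal varied by only 4.39% (coefficient of variation over the 9 arrays), and that of Ndufb11 by 4.29%, the least of all members. The second probe sets of Ndufa7 and Ndufv3 had -0.18 ± 0.23 and -0.088 ± 0.19, so that for Ndufa7 the sign differed between its probe sets.

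The Q module hands the electrons to ubiquinone. Of its 5 members here, 1 lay higher and 4 lower, with a median of -0.080, and of -0.00029 without cafeteria replicate 3. Ndufa9, which helps to join the peripheral arm to the membrane arm, was the higher one. Its signals were 1920.0, 1770.1, 1947 and 2145 on standard and 2035, 2148, 2472, 2075 and 2143 on cafeteria arrays. The groups overlapped, since standard replicate 4 lay above 3 of the cafeteria arrays, and cafeteria replicate 3 was the highest of all. The log2 fold was 0.16 ± 0.10 (SE) (adjusted p 0.859 by limma, exact permutation p 0.0635), and 0.11 without cafeteria replicate 3. Its second probe set did not reach the signal needed for the test and had a fold of the opposite sign, -0.12. With the mean of its probe sets the fold of Ndufa9 was 0.022.

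Ndufs7 holds the last iron-sulfur cluster before ubiquinone. It had 1911, 2069.8, 2088 and 2281 on standard and 2201, 2215, 1307.5, 1806 and 1891 on cafeteria arrays. Cafeteria replicate 3 was by far the lowest, replicates 4 and 5 lay below the standard range by less, and the other pair lay inside it. The means were 2087.5 ± 151.7 (SD, n = 4) on standard and 1884 ± 370.4 (SD, n = 5) on cafeteria arrays, a log2 fold of -0.17 ± 0.15 (SE), and of -0.044 without that array (adjusted p 0.873 by limma with all arrays). Ndufs8, another iron-sulfur subunit of the core, had 1469, 1576, 1496 and 1051 on standard and 1203, 1301, 1272, 1222.5 and 1529 on cafeteria arrays. All its cafeteria values lay inside the standard range, whose low end was set by standard replicate 4. The fold of Ndufs8 was -0.086 ± 0.13 (SE), and -0.22 without that standard array. Ndufs3 had 1403, 1585, 1511 and 1586 on standard and 1419, 1486, 1235, 1559 and 1621 on cafeteria arrays, with overlapping groups and a log2 fold of -0.059 ± 0.11 (SE). The accessory subunit Ndufa5 had -0.080 ± 0.23 (SE), with a sign that turned without cafeteria replicate 3 (0.084) and without standard replicate 4 (0.030). Over the 6 core subunits measured, 2 lay higher and 4 lower, with a median log2 fold of -0.041. The 28 accessory subunits split 14 to 14 with a median of -0.00080.

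In the proximal membrane part, 2 of 7 members lay higher and 5 lower, with a median of -0.027, and of 0.044 without cafeteria replicate 3. Ndufc1, a small membrane subunit, had 1423, 1609, 1507 and 1655 on standard and 1744, 1742, 1707, 1915 and 1694 on cafeteria arrays. Every cafeteria array lay above every standard one, the nearest values being 1655 and 1694. Its means were 1548.5 ± 104.2 (SD, n = 4) on standard and 1760.5 ± 88.9 (SD, n = 5) on cafeteria arrays. The log2 fold was 0.18 ± 0.096 (SE), with an adjusted p of 0.843 by limma and an exact permutation p of 0.0079, the smallest that 126 splits of the arrays can give two-sided. Ndufa11, a membrane subunit that contacts its neighbours in supercomplexes, had 2426, 3276, 2994 and 3248 on standard and 3387, 2733, 1550.3, 3069 and 3072 on cafeteria arrays. Cafeteria replicate 3 was lowest and standard replicate 1 next, while the other 7 arrays lay between 2733 and 3387. The log2 fold was -0.15 ± 0.20 (SE), and turned to 0.044 without cafeteria replicate 3.

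Of the others in this part, Ndufa1 had 0.038 ± 0.10 (SE) and Ndufa13, known also as Grim19, a link to cell death signalling, -0.025 ± 0.14 (SE). Ndufc2 had -0.027 ± 0.11 (SE), Ndufa8, a subunit on the intermembrane face, -0.079 ± 0.11 (SE), and Ndufa3 -0.12 ± 0.21 (SE). The signs of Ndufa1, Ndufa13, Ndufc2 and Ndufa3 turned in some alternative settings, and that of Ndufa8 did not, though it was -0.0061 without cafeteria replicate 3.

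The distal membrane arm, made of the Ndufb subunits around the far proton pumps, held members on both sides. Of its 11 members, 6 lay higher and 5 lower, with a median of 0.00051, and of 0.11 without cafeteria replicate 3. It contained the 3 members with the smallest p and also the lowest fold of all, that of Ndufb10. Ndufb6 had signals of 2109, 2146.5, 2109 and 2233 on standard and 2520.1, 2572, 2458, 2507 and 2716.5 on cafeteria arrays. The groups were well apart, with a gap wider than the whole standard range. Its means were 2149 ± 58.4 (SD, n = 4) on standard and 2555 ± 99 (SD, n = 5) on cafeteria arrays, and the log2 fold was 0.25 ± 0.086 (SE) with a 95% interval of 0.061 to 0.43. Limma's unadjusted p was 0.013 and the adjusted one 0.839, and the exact permutation p was 0.0079, again the smallest possible.

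Ndufb3 had 4222, 3612, 3736 and 3811 on standard and 4310.0, 4561, 4607, 4321 and 4723 on cafeteria arrays. The groups did not overlap, with standard replicate 1 close below cafeteria replicates 1 and 4. The means were 3845 ± 264.2 (SD, n = 4) on standard and 4504 ± 182.3 (SD, n = 5) on cafeteria arrays, a log2 fold of 0.23 ± 0.087 (SE) (adjusted p 0.839 by limma, exact permutation p 0.0079). Ndufb5, which had the next p and is given in full after its values were seen, had 5743, 5642, 4806 and 5373.5 on standard and 5519, 6097, 6711, 6498.5 and 7479 on cafeteria arrays. Of its 5 cafeteria arrays 4 lay above the standard range, and cafeteria replicate 1 lay inside it. The log2 fold was 0.26 ± 0.10 (SE) (adjusted p 0.839 by limma, exact permutation p 0.0397). With each array left out in turn, the folds of Ndufb6, Ndufb3 and Ndufb5 stayed between 0.20 and 0.31.

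**Figure D5:**
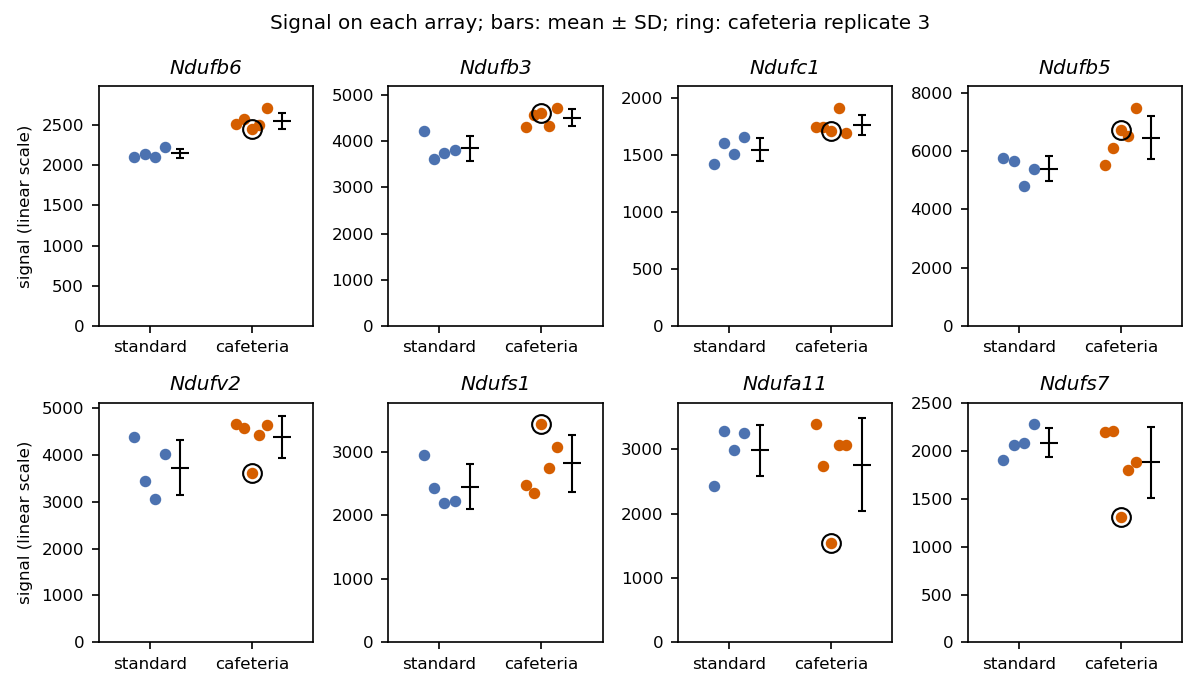
Linear signal of 8 genes on each of the 4 standard and 5 cafeteria arrays, with mean and SD beside each group and cafeteria replicate 3 ringed. The groups are apart for Ndufb6, Ndufb3 and Ndufc1, and the ringed array is the lowest for Ndufa11 and Ndufs7 and the highest for Ndufs1.

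Elsewhere in the distal arm, Ndufb9 had 0.16 ± 0.12 (SE) and Ndufb11 0.075 ± 0.082 (SE), with signs kept in all alternatives run. Ndufb10, on the intermembrane face, had -0.20 ± 0.12 (SE), and -0.11 without cafeteria replicate 3. Ndufb7 had 0.00051 ± 0.14 (SE), Ndufb1 -0.0056 ± 0.13 (SE), Ndufb2 -0.019 ± 0.093 (SE) and Ndufb4 -0.036 ± 0.13 (SE), and each of these signs turned in some setting. Ndufb8, with group mean signals of 256.1 and 247.7, had -0.12 ± 0.26 (SE), and 0.062 without that array. Its coefficient of variation, 27.9%, was the largest of the set.

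Ndufab1, the mitochondrial acyl carrier protein that sits in complex I and serves fatty acid synthesis, had a log2 fold of 0.088 ± 0.12 (SE) (adjusted p 0.926 by limma). Ndufa4, placed in complex IV today, had 0.13 ± 0.11 (SE), with standard replicate 1 lowest at 6579 and the other 8 arrays between 7376 and 9291. Its paralogue Ndufa4l2 had signals of 399.2, 702.9, 393.8 and 490.8 on standard and 441.0, 611.0, 387.6, 405.0 and 500.3 on cafeteria arrays. The cafeteria values spread across most of the standard range, and the fold was -0.060 ± 0.19 (SE). Its sign turned without standard replicate 2 (0.12), its highest array, and without cafeteria replicate 3 (0.0017). Without these last 2 genes the set has 34 members, 16 higher and 18 lower, with the same median. By symbol, the medians were -0.025 for 13 Ndufa genes, 0.079 for 2 Ndufc, -0.034 for 6 Ndufs and -0.0021 for 3 Ndufv genes, and the 11 Ndufb genes are those of the distal arm.

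None of the related gene lists had a member that passed limma's test either. An unadjusted p under 0.05 was reached by 0 of 14 assembly factors, 6 of 38 genes of complexes II to V, 2 of 14 regulators and 2 of 73 mitochondrial ribosomal proteins, against 5.8% of all probe sets. The 14 assembly factors tested, which build complex I without staying in it, split 9 higher and 5 lower with a median of 0.080. The 2 with the smallest p of that list were Ndufaf4, with 0.15 ± 0.11 (SE), and next Ndufaf5, with 0.24 ± 0.17 (lowest adjusted p 0.860 by limma). Of 38 genes tested for complexes II to V, 31 lay higher and 7 lower, with a median of 0.093, beside 17 higher of 36 in complex I. The difference between these lists was not tested. By complex the medians were 0.091 for 4 genes of complex II, 0.18 for 8 of III, 0.036 for 11 of IV and 0.10 for 15 of V. Without cafeteria replicate 3 they were 0.10, 0.096, 0.12 and 0.10. Atp5mk of ATP synthase had 0.26 ± 0.091 and Cox7c of complex IV 0.21 ± 0.079 (lowest adjusted p of the list 0.839 by limma). For both, every cafeteria array lay above every standard array, as for 0.999% of all probe sets. Some mitochondrial ribosomal proteins were apart in the same way. Without cafeteria replicate 3, 35 of 38 lay higher, with a median of 0.10, against 28 of 36 and 0.079 in complex I. Mitochondrial ribosomal proteins had 55 of 73 higher with a median of 0.063, and 58 of 73 with 0.059 without that array.

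Regulators of mitochondrial gene expression split 8 higher and 6 lower of 14, with a median of 0.017. The coactivator Ppargc1a had a signal of 179.3 ± 17.5 (SD, n = 4) against 273.0 ± 89.2 (SD, n = 5), a log2 fold of 0.51 ± 0.23 (SE). Its relative Pprc1 had 0.32 ± 0.13. The factors whose letters were sought in the promoters had -0.24 ± 0.15 (Nrf1), 0.033 ± 0.14 (Gabpa) and 0.00062 ± 0.11 (Yy1). Tfam, which maintains and transcribes mitochondrial DNA, had -0.038 ± 0.12. The lowest adjusted p of this list was 0.839 by limma.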

How the data were processed

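The authors deposited 1 linear intensity signal for each probe set on each array. MAS5 is the tool that the submitters' processing notes name, and no version or setting of it was found in the labels. Each array's mean after trimming 2% from each end was 500.0, so no further scaling was applied. Removing 57 control probe sets left 31042; detection calls were not used here. Names came from the platform annotation: 20826 probe sets had 1 symbol, 436 several and 9780 none here. All 36 member identifiers matched a current rat gene.

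Log2(signal + 16) was fitted with an intensity trend in limma 3.58.1, under R 4.3.3, on the diet alone, over the 18625 probe sets at or above the 40th percentile of mean log2 signal (a signal of 91.1), which all 36 members passed. Single genes were also tested by exact permutation over 126 splits. On simulated arrays built on each probe set's observed mean and its modelled variance, changes of 0.5, 1 and 2 (log2) in 200 of 18625 probe sets were recovered in 15.1%, 67.2% and 98.6% of cases. Tables and plots used Python 3.11.15.

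Every member was named. Values by array were given for the 2 members with the smallest p in each module and for the core subunits; in other lists, up to 2 genes and, among regulators, Ppargc1a, Nrf1, Gabpa and Tfam. Yy1 was added afterwards for the promoters. Sequences shown are of members given by array for their core role or their small p that held a motif. Ndufa5, given by array after its values were seen, also held Nrf1 letters and is not shown. Members, modules and lists were chosen with earlier results of these data known. Alternatives were pseudocounts of 1 and 64, quantile or median scaling, no filter or the 60th percentile, the mean of a gene's probe sets, no intensity trend, the replicate number as a block and each array left out. A fit with the beta-actin ratio as a covariate was added after the arrays had been seen.

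Same-numbered arrays of both diets come from different rats. Their deviations from the group means correlated at -0.384, -0.053, -0.121 and 0.030 for numbers 1 to 4, so the numbers were not taken as pairs.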

Additional observations from a re-analysis of the deposited data

Results flagged for a closer look

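In a group of 4 or 5 arrays, a value was singled out where its gap to the nearest other array exceeded 0.829 or 0.71 of the group's range (Dixon's criterion). Chance singles out about 1 group in 20. Over 72 groups of member signals, 8 values met this, and 6 of them were on cafeteria replicate 3.

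On that array, Ndufa11 had a signal of 1550.3, against 2733 to 3387 on the others of its group. Ndufb1 had 2072, against 2954 to 3172 on the others of its group. Ndufa8 had 1801, against 2249.9 to 2377 on the others of its group. Both core flavoprotein subunits of the N module were also low there: Ndufv1 had 1868, against 2233 to 2339 on the others of its group, and Ndufv2 3599, against 4417 to 4645 on the others of its group. Ndufa9 was the one high value, at 2472, against 2035 to 2148 on the others of its group. The median deviation of all 36 members on this array, -0.24, met the criterion too, against 0.047 to 0.085 on the other cafeteria arrays.

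Elsewhere, Ndufa3 on standard replicate 1 had 1748, against 2831 to 3119 on the others of its group, and Ndufc1 on cafeteria replicate 4 had 1915, against 1694 to 1744 on the others of its group.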

How the results depend on the processing

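No member passed the adjusted threshold in any of the 19 alternatives run (lowest adjusted p 0.498, without cafeteria replicate 1). Over all probe sets, 0 passed in 18 of them and 2 without standard replicate 2, neither of them a member. With each array left out, members at an unadjusted p under 0.05 numbered 1 to 6, against 3.82% to 8.99% of all probe sets. Members above 0 numbered 17 to 28, against 47.2% to 49.3% of all. The former count was 5 without cafeteria replicate 3 (4.21% of all), 6 without standard replicate 1 (8.99%) and 1 without standard replicate 3 (3.82%). It was 1 with no intensity trend, against 5.61% of all probe sets. With the replicate block it was 0, against 582 of all probe sets in place of 1080. With the beta-actin ratio as covariate it was 4, against 7.42% of all probe sets. In that fit 21 members lay above 0, against 48.3% of all. The median of the distal membrane arm, equally of Ndufb genes, ran from -0.042 to 0.11 with arrays left out. The sign of the log2 fold held for 20 of 36 members in all 19 alternatives. With arrays left out, the folds of the others ranged as Ndufa1 -0.011 to 0.11, Ndufa11 -0.25 to 0.044, Ndufa13 -0.093 to 0.079, Ndufa3 -0.31 to 0.041, Ndufa4l2 -0.16 to 0.12, Ndufa5 -0.26 to 0.084, Ndufa7 -0.045 to 0.17, Ndufb1 -0.046 to 0.11, Ndufb2 -0.043 to 0.026, Ndufb4 -0.095 to 0.078, Ndufb7 -0.055 to 0.12, Ndufb8 -0.25 to 0.062, Ndufc2 -0.12 to 0.056, Ndufs4 -0.14 to 0.11, Ndufv1 -0.11 to 0.044 and Ndufv3 -0.074 to 0.097. With median scaling, signs turned for Ndufa13 (0.020), Ndufb1 (0.039), Ndufb2 (0.026), Ndufb4 (0.0085), Ndufc2 (0.018), Ndufs4 (0.034), Ndufv1 (0.022) and Ndufv3 (0.043), as the median of all probe sets moved from -0.0090 to 0.034. Quantile scaling turned Ndufa1 (-0.028), Ndufb7 (-0.010) and Ndufs4 (0.0044). The replicate block turned Ndufb7 (-0.016), Ndufb8 (0.0026) and Ndufv3 (0.036), the beta-actin covariate Ndufa13 (0.017), Ndufa5 (0.0024), Ndufb1 (0.023) and Ndufv3 (0.035), and the mean of its probe sets Ndufa7 (-0.047). The causes were not tested. The simulation recovered 15.1% of changes of 0.5 over all probe sets. Smaller changes, and changes in the members alone, were not simulated.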
